A study of Homo sapiens with 36 samples.

Results

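The androgen-regulated prostate genes described here are 35 genes of 27852 with a symbol in the deposited table, taken by gene symbol and not by any measured value. They comprise 4 genes for secreted prostate proteins, 8 for surface, protease and transport proteins, 10 for signalling and trafficking proteins, 5 for metabolic enzymes, 7 for transcription and nuclear proteins, and C1orf116. For each gene the estimated transcript counts were summed, each transcript once, and scaled to counts per 1000000 counts of the library (CPM).

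The RNA came from human PCa cell lines cultured alone or beside bone cells in NICO-1 vessels, in which wells lie side by side and share medium through a filter. C4-2 and C4-2B are labelled osteoblastic PCa (BPCa), and 22Rv1 and DU145 are labelled osteolytic PCa (LPCa). Each of the 4 lines was sequenced as 3 mono-cultures without RANKL, 2 co-cultures with MG63, a human osteosarcoma line used as osteoblast-like cells, 2 mono-cultures with RANKL at 50 ng/mL, and 2 co-cultures with RAW264.7, mouse monocytic cells that RANKL turns into osteoclasts, also with RANKL at 50 ng/mL. All cultures were kept for 5 days in αMEM with 10% FBS, and the labels name no added androgen. C4-2B is a bone-derived subline of C4-2, so that the BPCa lines have 1 origin. The labels do not say that the libraries of a group came from separate cultures, and every p value therefore measures only the spread between these libraries.

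The 12 mono-cultures without RANKL held 23932472 to 36719047 counts (median 31454200), and the other 24 libraries held 9593426 to 15418211 (median 12795834). Depth and co-culture, and depth and RANKL, therefore cannot be told apart where the mono-cultures without RANKL served as control, and most MG63 results are therefore also given against the mono-cultures with RANKL, which were close in depth but differ in RANKL. The detection floor of 3 counts corresponded to no more than 0.125 CPM in any mono-culture without RANKL and to no more than 0.313 CPM in any other library, and it covers counting error only. The MG63 co-cultures of DU145 stood apart from each other, for example with 456 and 800 CPM for the keratin gene KRT8. Of 6 luminal markers, KRT8, KRT18, EPCAM, CDH1, HOXB13 and FOXA1, all were at 75.9 CPM or more in every C4-2, C4-2B and 22Rv1 library. The list was mixed in DU145 mono-cultures without RANKL, with means of 625 CPM for KRT8 and 411 CPM for KRT18, above those of the other lines, and of 0.366 CPM for HOXB13.

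Androgens are steroid hormones that act on luminal prostate epithelium largely by changing transcription, through DNA elements made of paired inverted hexamers. The genes that they induce there include the kallikrein proteases of seminal fluid, among them prostate-specific antigen (PSA, the product of KLK3), proteins of the cell surface used as imaging and therapy targets, and enzymes of lipid, polyamine and sugar metabolism. PSA in serum is used clinically as a readout of androgen action, and some of these genes, FKBP5 in particular, also respond to the glucocorticoid receptor.

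The glucocorticoid receptor gene set DU145 apart. Without RANKL, DU145 mono-cultures expressed this gene, NR3C1, at 69.7 to 72.7 CPM, against at most 0.222 CPM in C4-2 and C4-2B and 3.30 to 3.69 CPM in 22Rv1 mono-cultures.

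The promoters of KLK3 and KLK2 are shown because these genes were the most abundant members in the BPCa lines and because their changes with MG63 differed between lines and controls. The sequences are the 250 bases before the RefSeq start of each gene on GRCh38.p14, both on the plus strand of chromosome 19, and the capitals mark the best match to the palindromic steroid response element AGAACA, 3 bases of any kind and TGTTCT, which reads the same on both strands.
KLK3, chr19:50854665-50854914: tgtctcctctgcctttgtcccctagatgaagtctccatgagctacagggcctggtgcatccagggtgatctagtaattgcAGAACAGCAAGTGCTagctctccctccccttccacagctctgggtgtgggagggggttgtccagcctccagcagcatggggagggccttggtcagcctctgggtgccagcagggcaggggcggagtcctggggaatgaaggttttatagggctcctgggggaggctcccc
KLK2, chr19:50873189-50873438: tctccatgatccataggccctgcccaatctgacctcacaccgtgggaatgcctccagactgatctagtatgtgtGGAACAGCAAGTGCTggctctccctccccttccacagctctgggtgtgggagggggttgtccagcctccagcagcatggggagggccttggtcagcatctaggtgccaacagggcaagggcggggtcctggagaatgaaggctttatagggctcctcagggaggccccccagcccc
The match in KLK3 lay at −170 to −156 from the start and differed from the motif at 2 of 12 scored letters, and that in KLK2 lay at −176 to −162 and differed at 3. The windows of the paralogs aligned over 259 columns with 205 identical (79.2%). RefSeq promoters were matched for 27 of the 35 members, with 49 windows. No window was used for MSMB, TMPRSS2, FOLH1, TPD52, ADAMTS1, SORD, ELL2 and ZBTB10. Whether the windows of members and all windows were kept under the same rule was not tested. Their shares are therefore given side by side only. A match with at most 2 differences was found in 2 windows, of KLK3 and PMEPA1, and in 1.18% of all 35116 windows. With at most 3 differences it was found in 7 windows of 7 members (14.3%) against 9.17% of all windows. A single hexamer AGAACA or TGTTCT was found in 3 windows of members (6.12%) against 12.4% of all windows. A match is a description of letters and not a binding site.

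**Figure D1:**
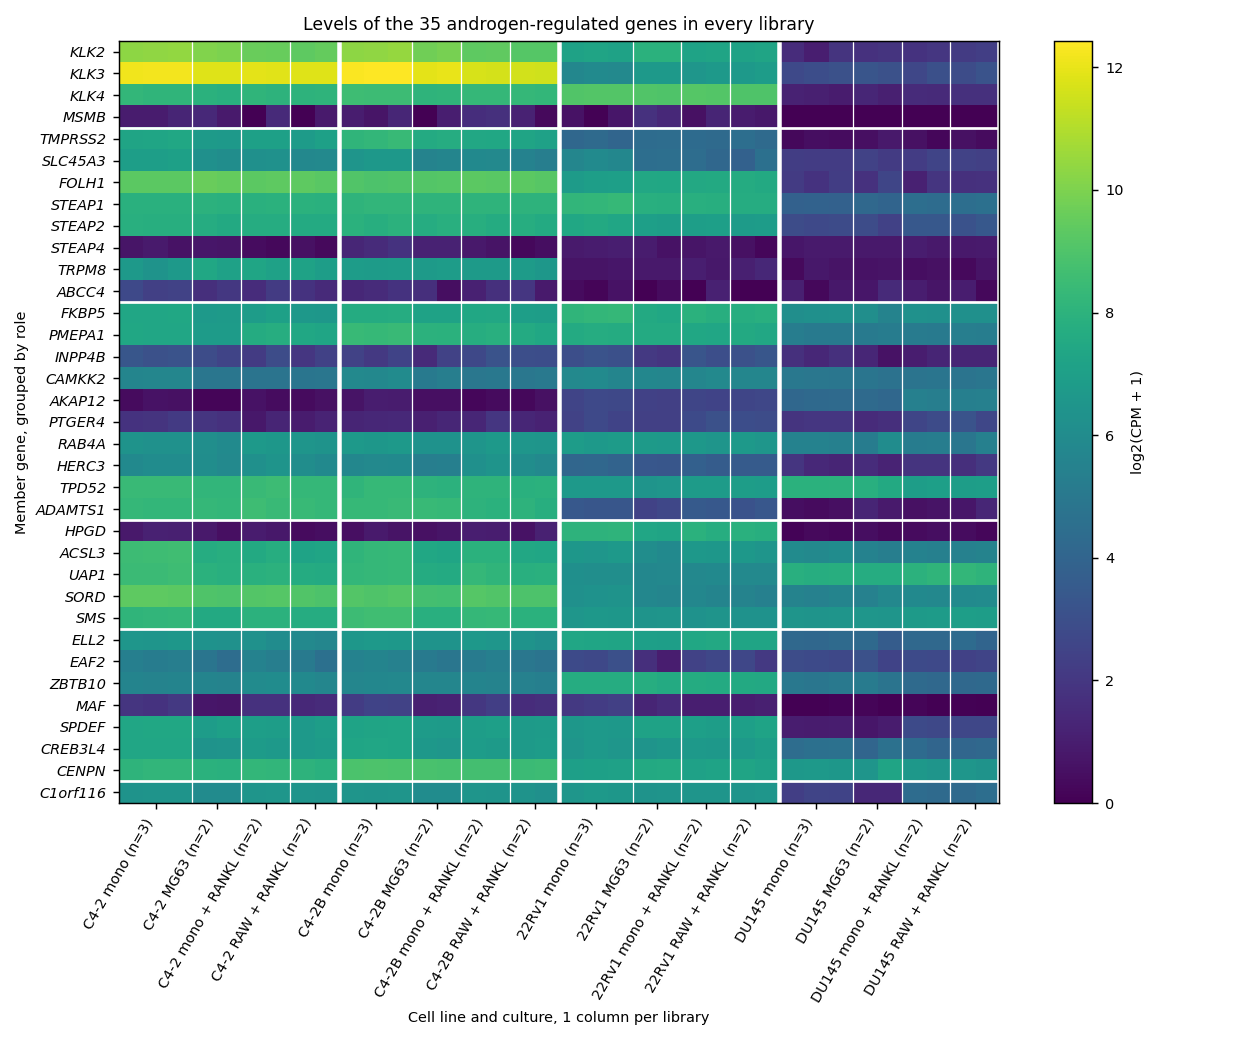
Heatmap of log2(CPM + 1) for the 35 genes (vertical axis, grouped by role) in all 36 libraries (horizontal axis, grouped by line and culture), with the color scale giving log2(CPM + 1). The C4-2 and C4-2B columns are the brightest for KLK3 (2950 to 5530 CPM), HPGD is bright only in the 22Rv1 columns (152 to 272 CPM), AKAP12 is highest in DU145, and most other genes are darkest there.

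In mono-culture the genes together made up 1.14e+04 to 1.17e+04 CPM in C4-2, 1.25e+04 to 1.31e+04 CPM in C4-2B, 3540 to 3700 CPM in 22Rv1 and 1080 to 1100 CPM in DU145. The libraries of the 4 lines did not overlap in this sum. Single genes had their highest mean in C4-2 for 12 members, in C4-2B for 13, in 22Rv1 for 9 and in DU145 for 1, AKAP12. DU145 lay below all libraries of the other lines for 27 members, and both C4-2 and C4-2B lay above all libraries of both other lines for 19. The heatmap of levels shows these blocks.

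Of the 4 secreted genes, KLK3 and KLK2 were above both LPCa lines in all libraries of the BPCa lines, and KLK4 and MSMB were not. KLK3 was 4600, 4760 and 4720 CPM in the C4-2 mono-cultures, 5340, 5390 and 5530 CPM in C4-2B, 52.4, 60.5 and 57.5 CPM in 22Rv1, and 5.81, 6.67 and 7.43 CPM in DU145. Scaled for transcript length, KLK3 had a mean of 4220 TPM (transcripts per 1000000, each count divided by transcript length) and rank 40 of 27852 genes in C4-2B, and rank 46 in C4-2, 2359 in 22Rv1 and 9249 in DU145. KLK2, a kallikrein that activates pro-PSA, was 1290, 1320 and 1380 CPM in C4-2, 1270 to 1420 CPM in C4-2B, 141, 152 and 144 CPM in 22Rv1, and 1.05 to 2.68 CPM in DU145. C4-2 and C4-2B overlapped for KLK2 and not for KLK3. KLK4, a kallikrein also known from tooth enamel, had another order, since 22Rv1 was highest with 536, 545 and 548 CPM, followed by C4-2B with 366 to 381 CPM, C4-2 with 281 to 300 CPM and DU145 with 0.944 to 1.28 CPM. On the length-scaled level KLK4 exceeded KLK3 in 22Rv1 (598 against 46.3 TPM) and was far below it in C4-2 (325 against 3750 TPM). MSMB, the gene for the seminal protein beta-microseminoprotein, stayed at or under 1.51 CPM in all mono-cultures without RANKL and had no count in the DU145 libraries. KLK2 and KLK3 are close paralogs, and how the authors' quantification split reads between them is uncertain.

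Among the surface and transport genes, TMPRSS2, a serine protease gene of the luminal cell surface, was 154 to 168 CPM in C4-2, 282 to 334 CPM in C4-2B, 15.5 to 18.6 CPM in 22Rv1 and at most 0.391 CPM in DU145. FOLH1, which encodes prostate-specific membrane antigen, was 628 to 639 CPM in C4-2, 499 to 536 CPM in C4-2B, 113 to 130 CPM in 22Rv1 and 2.59 to 3.81 CPM in DU145. STEAP1 and STEAP2, neighbouring genes of the STEAP family, differed less between C4-2, C4-2B and 22Rv1, with 234 to 324 CPM for STEAP1 and 165 to 250 CPM for STEAP2. They were 13.3 to 13.9 CPM and 5.72 to 6.47 CPM in DU145. TRPM8, the cold-sensing ion channel gene, was 82.9 to 118 CPM in the BPCa lines and at most 0.735 CPM in the LPCa lines. FOLH1 and STEAP1 have close paralogs (FOLH1B and STEAP1B), SORD has a pseudogene, and reads shared with them make these levels uncertain.

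Among the enzymes, HPGD, which inactivates prostaglandins, was 259 to 272 CPM in 22Rv1 and 0.401 to 1.19 CPM in the BPCa lines, 252 times its mean in the next line. SORD, ACSL3, UAP1 and SMS, for sorbitol dehydrogenase, a long-chain acyl-CoA synthetase, a UDP-GlcNAc pyrophosphorylase and spermine synthase, were highest in C4-2 or C4-2B. UAP1 and TPD52 were an exception to the low values of DU145, with 217 to 230 CPM and 247 to 252 CPM, above the 22Rv1 libraries (70.4 to 72.5 and 101 to 104 CPM). AKAP12, a scaffold protein that anchors protein kinase A, ran the other way round, with 16.9, 18.2 and 18.7 CPM in DU145, 4.95 to 5.61 CPM in 22Rv1 and 0.272 to 1.00 CPM in the BPCa lines.

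Tested with edgeR (quasi-likelihood test, Benjamini-Hochberg adjustment over all genes, called at an adjusted p under 0.05), 33 of the 35 genes could be compared between the mono-cultures without RANKL, since MSMB and STEAP4 stayed under 100 counts in each of the libraries without RANKL. Between C4-2B and C4-2, 10 members were higher in C4-2B, where 7.41% of all genes tested were called higher, and 5 were lower, where 6.24% were. PMEPA1, a gene that dampens TGF-beta signalling, was 1.04 ± 0.06 higher (log2 fold change ± SE, adjusted p = 6.65e-09) and TMPRSS2 0.98 ± 0.08 higher (adjusted p = 8.43e-07), and KLK3 differed by 0.25 ± 0.08 (adjusted p = 0.0374). INPP4B, a phosphoinositide phosphatase, was lower in C4-2B by −0.94 ± 0.24 (adjusted p = 0.0169), and so was SLC45A3, a prostate membrane transporter gene (−0.39 ± 0.08, adjusted p = 0.00254).

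Between 22Rv1 and C4-2, 10 members were higher and 19 lower in 22Rv1 (36.4% and 35.6% of all genes). The range ran from −7.30 ± 0.18 for TRPM8 and −6.42 ± 0.10 for KLK3 to 7.95 ± 0.16 for HPGD. TRPM8 in 22Rv1 (0.551 to 0.700 CPM) and HPGD in C4-2 (0.809 to 1.19 CPM) were under 100 counts. Each passed the minimum only through lines where it was high. Against C4-2, DU145 had 1 member higher and 31 lower (39.3% and 39.0% of all genes), and against 22Rv1 it had 3 higher and 26 lower (39.1% and 40.5%). C4-2 mono-cultures are shared by both comparisons with C4-2, those of 22Rv1 by both with 22Rv1, and those of DU145 by both with DU145. The share of members called lower in DU145 was above that of all genes against C4-2 and against 22Rv1. KLK2, KLK4, TMPRSS2, ADAMTS1, HPGD and MAF were among the members under 100 counts in DU145 mono-cultures (at most 2.68 CPM). They passed the minimum only through other lines. Counts over genes that reached it in both lines were not made, and these shares are not read further. PTGER4, a prostaglandin E2 receptor gene, was the 1 member not called between DU145 and C4-2 (−0.05 ± 0.16, adjusted p = 0.774).

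The comparison of MG63 co-culture with mono-culture asked how the PCa lines respond to osteoblast-like cells. In C4-2, 13 of 33 members were called lower and 1 higher, where 4.79% of all genes were called lower and 5.30% higher. In C4-2B, 17 were called lower and 0 higher, where 3.89% and 3.52% of all genes were called. MAF, INPP4B, PTGER4 and ABCC4 reached the minimum of 100 counts in mono-culture without RANKL and in no MG63 library, so that they entered the fit only through the deeper group. No library with RANKL alone reached it for them either, and the main counts of members called between cultures without RAW264.7 are therefore also given without these 4 genes. Over the 11497 genes that reached it in both cultures, 12 of 29 members fell and 1 rose in C4-2 (5.14% and 5.84% of these genes), and 16 fell and 0 rose in C4-2B (4.18% and 3.93%). The 11 genes TMPRSS2, SLC45A3, FKBP5, PMEPA1, CAMKK2, ACSL3, UAP1, SMS, SPDEF, CREB3L4 and C1orf116 fell in both, 11 of the 12 of C4-2 and 11 of the 16 of C4-2B. Of these, only C1orf116 and SMS were again called lower in both lines against mono-culture with RANKL. The median log2 fold change over the 29 members was −0.27 in C4-2 and −0.36 in C4-2B, against −0.00257 and 0.00184 over these genes. The changes called among the 29 were smaller than 2-fold. Beside the MG63 effect, the total-count scaling and the TMM scaling of the test differed by −0.11 (log2) in C4-2 and 22Rv1, −0.06 in C4-2B and −0.07 in DU145, so that ratios of CPM are lower than the fitted fold changes by that amount. The counts rest partly on single libraries, being 9 without MG63 library 1 in C4-2, and 8 and 10 without MG63 library 1 and library 2 in C4-2B.

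**Figure D2:**
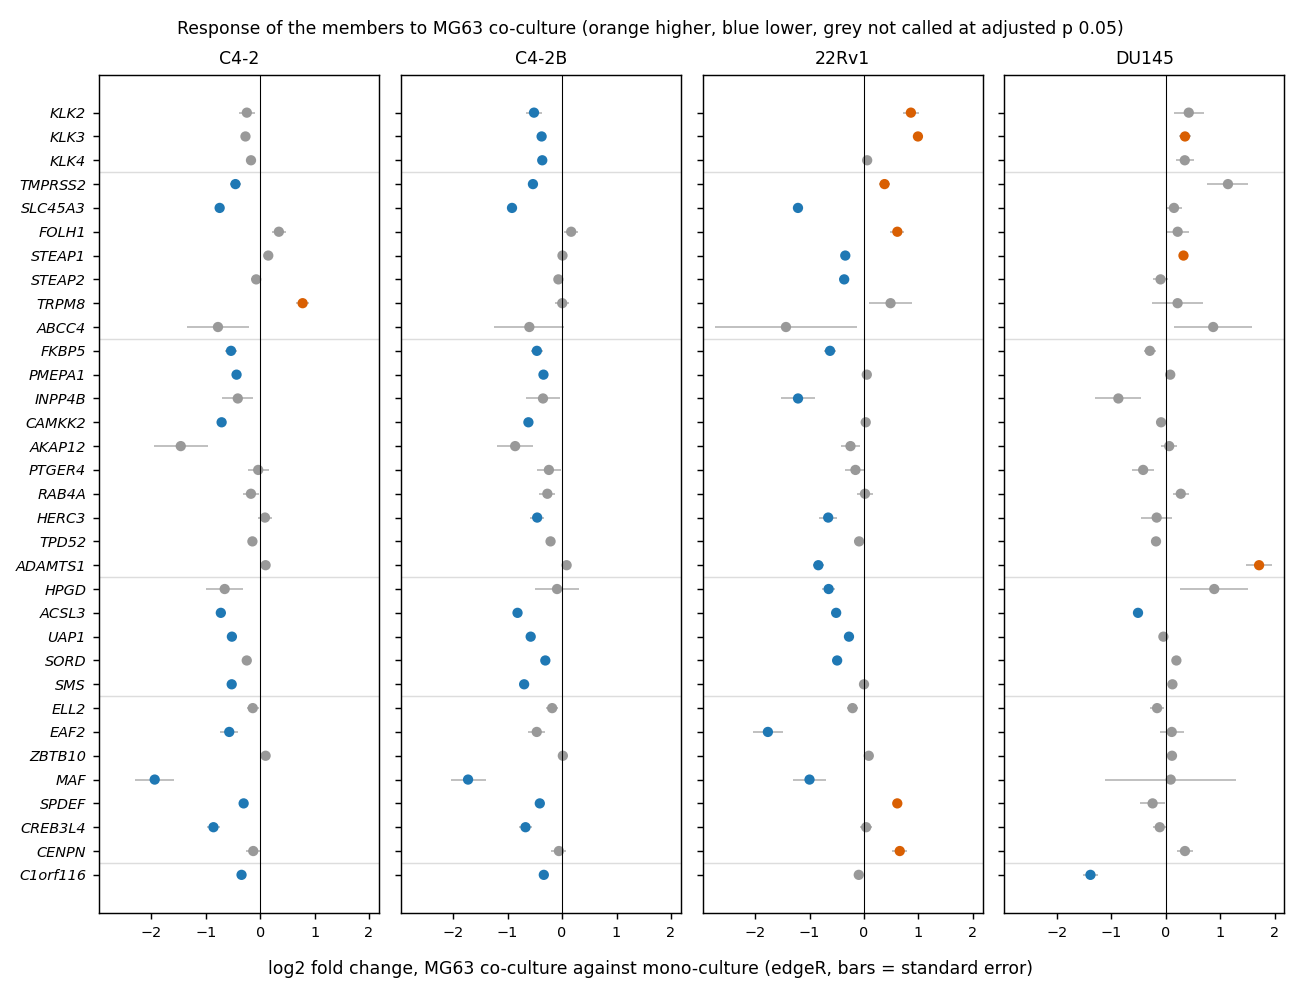
Dot plot of the log2 fold change with its SE (horizontal axis) of MG63 co-culture against mono-culture without RANKL for the 33 genes tested (vertical axis), 1 panel per line. Orange points were called higher, blue points lower and grey points not called, with 13 blue points in C4-2, 17 in C4-2B, 13 in 22Rv1 and 2 in DU145, among them MAF in the first 3 panels and INPP4B in 22Rv1, which entered through the mono-cultures alone.

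ACSL3, which activates long fatty acids for lipid synthesis, was 361, 384 and 391 CPM in the C4-2 mono-cultures and 207 and 219 CPM in the MG63 co-cultures, and in C4-2B it was 283, 305 and 320 against 169 and 160 CPM. It was 93.8, 92.5 and 103 against 67.1 and 58.5 CPM in 22Rv1 and 63.6, 56.7 and 65.6 against 43.9 and 38.7 CPM in DU145. ACSL3 was the 1 member that fell in every line, with log2 fold changes of −0.72 ± 0.09, −0.82 ± 0.09, −0.51 ± 0.09 and −0.51 ± 0.09 (adjusted p = 6.82e-05, 5.27e-05, 0.000959 and 0.00133). Against mono-culture with RANKL it was also lower in C4-2B (−0.59 ± 0.08) and 22Rv1 (−0.54 ± 0.09), and was 0.11 in C4-2 and −0.045 in DU145 without a call.

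SMS, which converts spermidine to spermine, was 284, 289 and 295 CPM in C4-2 mono-cultures and 186 and 187 CPM with MG63, and 366, 389 and 394 against 228 and 225 CPM in C4-2B. No co-culture library reached a mono-culture library. The changes were −0.52 ± 0.06 and −0.70 ± 0.06 (adjusted p = 1.85e-05 and 2.44e-06), and −0.42 ± 0.05 and −0.51 ± 0.05 against mono-culture with RANKL. In 22Rv1 SMS was not called (0.00073 ± 0.06). UAP1, of the hexosamine pathway, fell by 0.52 in C4-2, 0.58 in C4-2B and 0.28 in 22Rv1, and SORD, of the sorbitol pathway, fell by 0.31 in C4-2B and 0.49 in 22Rv1. With mono-culture with RANKL as control, UAP1 and SORD were again called lower in C4-2B (−0.61 ± 0.06 and −0.44 ± 0.08), whereas UAP1 was −0.055 in C4-2 and 0.031 in 22Rv1 and SORD was 0.13 in 22Rv1, none of them called.

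SLC45A3 was 123, 125 and 135 CPM in C4-2 mono-cultures and 73.5 and 68.1 CPM with MG63, and 88.3, 98.2 and 98.1 against 46.6 and 49.5 CPM in C4-2B. In 22Rv1 it was 50.7, 61.7 and 53.6 against 21.7 and 22.6 CPM. The groups did not overlap in any of these lines, and the changes were −0.75 ± 0.09, −0.92 ± 0.09 and −1.21 ± 0.10 (adjusted p = 5.82e-05, 1.99e-05 and 7.32e-07). The mono-cultures with RANKL were low too, since C4-2 had 74.3 and 78.4 CPM, C4-2B had 59.0 and 57.0 CPM and 22Rv1 had 20.6 and 16.5 CPM, and against them SLC45A3 was called in none of the lines.

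FKBP5, a co-chaperone of steroid receptors, was 163, 164 and 169 CPM in C4-2 and 104 and 107 CPM with MG63, 203, 201 and 207 against 142 and 141 CPM in C4-2B, and 283, 303 and 312 against 189 and 171 CPM in 22Rv1. It fell in these lines by 0.54, 0.46 and 0.62 (adjusted p = 0.00536, 0.0166 and 0.000953). Against mono-culture with RANKL it was called lower in C4-2B (−0.33 ± 0.10) and 22Rv1 (−0.30 ± 0.10) and not in C4-2 (−0.23 ± 0.10). MAF, a leucine zipper transcription factor gene, was at low levels, with 2.75, 2.55 and 3.14 CPM against 0.710 and 0.643 CPM in C4-2, whereas C4-2B had 3.64, 4.60 and 4.55 against 1.14 and 1.32 CPM. The groups did not overlap, and no test is given, since MAF passed the minimum of 100 counts only through the deeper mono-cultures, where it is high, with at most 23 counts in an MG63 library and at most 48 in a library with RANKL.

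Of the secreted genes, KLK2, KLK3 and KLK4 fell in C4-2B with MG63 and none of them was called in C4-2, while MSMB was too low to be tested. KLK3 was 3630 and 3580 CPM in the C4-2 co-cultures, and those of C4-2B had 3910 and 4090 CPM, below all mono-cultures without RANKL given above. The fitted change was −0.27 ± 0.09 (adjusted p = 0.0585) in C4-2, which was not called, and −0.38 ± 0.09 (adjusted p = 0.0131) in C4-2B. KLK2 was 1070 and 1010 CPM in the C4-2 co-cultures, and those of C4-2B had 850 and 936 CPM, with −0.25 ± 0.14 (adjusted p = 0.336) and −0.52 ± 0.15 (adjusted p = 0.0409). KLK2 was lower still in the mono-cultures with RANKL, at 777 and 752 CPM and 648 and 673 CPM, and against these the MG63 co-cultures were higher by 0.46 ± 0.12 and 0.40 ± 0.12 (adjusted p = 0.0107 and 0.0362). The direction for KLK2 in C4-2B therefore depended on the control. KLK3 in C4-2B likewise had no call against the mono-cultures with RANKL (3290 and 3200 CPM), with 0.27 on the log2 scale.

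**Figure D3:**
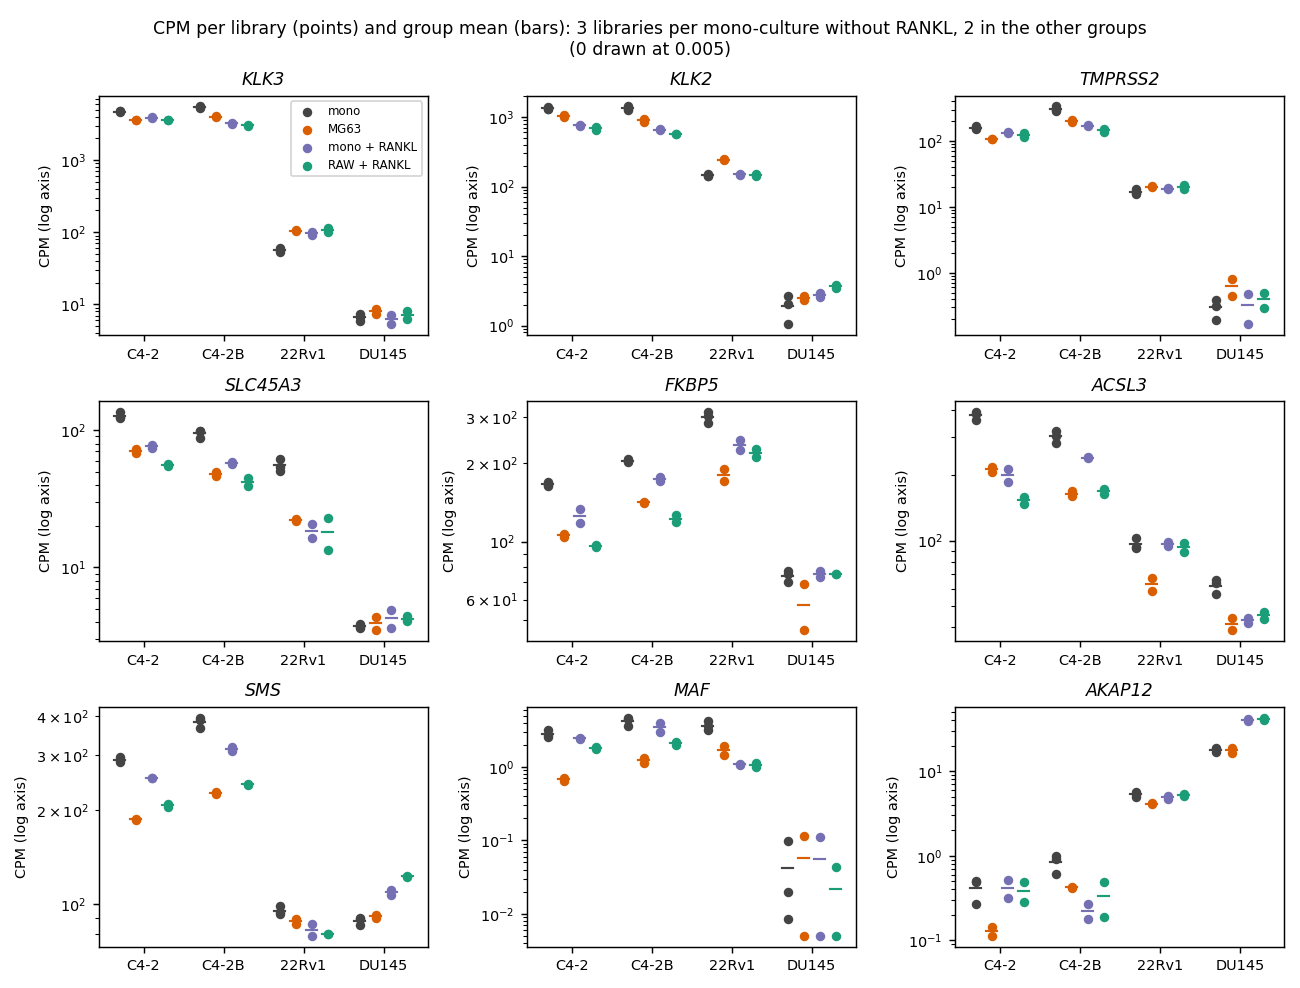
CPM on a log axis of KLK3, KLK2, TMPRSS2, SLC45A3, FKBP5, ACSL3, SMS, MAF and AKAP12 in every library (points) with the group mean (bars), by line and culture, with values of 0 drawn at 0.005. Relative to mono-culture without RANKL, ACSL3, SMS and FKBP5 sit lower with MG63 in C4-2 and C4-2B. On the same control KLK3 and KLK2 are higher with MG63 in 22Rv1, for example 103 and 106 CPM against 52.4 to 60.5 CPM for KLK3.

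Taking C4-2 and C4-2B together, the 4 MG63 co-cultures lay below all 6 mono-cultures for 15 of the 31 members that reached 100 counts in any of these libraries (48.4%) and above them for 0, where 17.5% and 4.77% of all genes did. Over genes that reached it in both groups of libraries these were 14 of 27 members (51.9%) and 0, against 18.2% and 5.15% of 9836 genes. In a two-sided exact permutation test of CPM, whose 210 arrangements do not keep the lines apart, 17 of these 27 members (63.0%) had p under 0.05 and were lower with MG63, against 30.1% of these genes, and 0 were higher, against 8.58%. The smallest p it allows, 0.009524, is reached whenever the libraries do not overlap and adds nothing to the count of 14. The scaling shift given above lowers CPM in these co-cultures. Against the 4 mono-cultures with RANKL, 7 of 27 members lay below (25.9%, against 7.30% of all genes) and 1, KLK2, lay above (7.75% of all genes). The 7 were RAB4A, HERC3, SORD, SMS, EAF2, CREB3L4 and C1orf116.

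In 22Rv1 the MG63 response was mixed, with 6 members called higher and 13 lower, where 11.2% and 9.18% of all genes were called. Without the genes that entered through the mono-cultures alone, 6 of 29 rose and 11 fell (12.7% and 9.85%). KLK3 rose from 52.4, 60.5 and 57.5 CPM to 103 and 106 CPM (0.99 ± 0.09, adjusted p = 1.91e-06), and KLK2 from 141, 152 and 144 to 242 and 248 CPM (0.86 ± 0.14, adjusted p = 0.000551). SPDEF, an epithelial ETS factor gene, was 93.4, 106 and 98.8 CPM against 141 and 141 CPM (0.61 ± 0.07, adjusted p = 2.61e-05). CENPN, a centromere protein gene, TMPRSS2 and FOLH1 rose as well, by 0.66, 0.38 and 0.61. With the other control, mono-culture with RANKL, TMPRSS2 was 0.18 and FOLH1 −0.00345, neither of them called. The secreted share of the summed level was 20.4 to 20.6% in mono-culture and 26.0 to 26.5% with MG63. Against mono-culture with RANKL, KLK2 was again higher (0.78 ± 0.12, adjusted p = 6.41e-05), as were SPDEF and CENPN, whereas KLK3, at 92.4 and 101 CPM in those mono-cultures, was not called.

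Among the genes that fell in 22Rv1, EAF2, an elongation factor partner of ELL2, went from 5.89, 5.38 and 7.27 CPM to 2.22 and 1.00 CPM (−1.77 ± 0.28, adjusted p = 0.000342, and −2.48 without MG63 library 1 of 22Rv1). HPGD went from 259 to 272 CPM to 161 and 152 CPM (−0.65 ± 0.12, adjusted p = 0.00112), and ADAMTS1, a secreted metalloprotease gene, from 9.90, 9.12 and 8.90 to 4.42 and 5.30 CPM (−0.84 ± 0.10, adjusted p = 4.53e-05). INPP4B went from 6.95, 7.97 and 7.28 to 3.20 and 2.72 CPM, with at most 92 counts in any MG63 library and therefore no test. In each of these 4 genes the groups did not overlap, and EAF2, HPGD and ADAMTS1 were called lower against mono-culture with RANKL too. STEAP1 and STEAP2 fell by 0.34 and 0.36, but the mono-cultures with RANKL were similarly low and gave 0.067 and 0.070.

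The response of 22Rv1 was tested against the mean response of C4-2 and C4-2B. It was higher for 11 members and lower for 3, where 4.43% and 2.94% of all genes were called. Over the 29 members these were again 11 and 3 (4.95% and 3.13% of the 11497 genes). The differences were 1.31 ± 0.11 for KLK3 (adjusted p = 2.98e-06), 1.24 ± 0.18 for KLK2 (adjusted p = 0.000451), 0.97 ± 0.09 for SPDEF (adjusted p = 9.27e-06) and 0.87 ± 0.13 for TMPRSS2 (adjusted p = 0.000557), the 4 genes that rose in 22Rv1 and fell in C4-2 or C4-2B. EAF2, ADAMTS1 and STEAP1 were the 3 with a lower response in 22Rv1, of which EAF2 moved from −1.25 to −1.97 without MG63 library 1 of 22Rv1. With mono-culture with RANKL as control the differences were 0.091 ± 0.11 for KLK3, 0.34 ± 0.15 for KLK2 and 0.22 ± 0.14 for TMPRSS2, none of them called, and 0.32 ± 0.10 for SPDEF (adjusted p = 0.0307). The count with that control was 10 higher and 1 lower, where 6.38% and 5.65% of all genes were called, and 9 and 1 over the 29 members. PMEPA1 (0.65 ± 0.09), SMS (0.63 ± 0.07), CENPN (0.63 ± 0.17) and UAP1 (0.36 ± 0.08) were higher and ADAMTS1 (−1.05 ± 0.16) lower with either control. Between C4-2B and C4-2 the response relative to mono-culture without RANKL differed for 0 members by edgeR in either direction (0.0819% and 0.0967% of all genes). At an unadjusted p under 0.05 there were 3, all lower (3.10% of all genes). DESeq2 called 2, where its share of all genes was not counted. Relative to mono-culture with RANKL it was higher for 4 members and lower for 4 (2.66% and 2.39% of all genes), or 4 and 3 over the 29 members.

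In DU145, 3 members rose and 2 fell with MG63, a smaller share than the 15.2% and 15.3% of all genes. Over the 29 members these were again 3 and 2 (17.3% and 16.2% of the 11497 genes). C1orf116 fell from 3.91, 4.93 and 4.67 CPM to 1.63 and 1.64 CPM (−1.39 ± 0.14, adjusted p = 1.37e-05), and ACSL3 fell as given above. STEAP1 (0.32 ± 0.07), KLK3 (0.35 ± 0.11) and ADAMTS1 (1.71 ± 0.23) rose, the latter pair at no more than 8.62 and 1.41 CPM. STEAP1 turned direction against mono-culture with RANKL and was called lower (−0.37 ± 0.07, adjusted p = 0.00103), while KLK3 (0.38 ± 0.14) and ADAMTS1 (1.19 ± 0.37) were again called higher and C1orf116 lower (−3.55 ± 0.12). The MG63 libraries differed from each other, as for FKBP5 with 68.7 and 45.9 CPM and CENPN with 87.6 and 151 CPM, and 10 members were called without library 1.

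The second control gave other counts. Against mono-culture with RANKL, MG63 co-culture had 2 members higher and 9 lower in C4-2 (4.89% and 5.37% of all genes), 2 and 10 in C4-2B (4.23% and 3.40%), 5 and 8 in 22Rv1 (8.02% and 7.26%), and 7 and 9 in DU145 (19.4% and 17.1%). Over the 29 members and the 11042 genes that reached 100 counts in both cultures, these were 1 and 8 in C4-2 (5.26% and 6.08% of these genes), 2 and 8 in C4-2B (4.32% and 3.78%), 5 and 7 in 22Rv1 (8.89% and 7.89%), and 7 and 8 in DU145 (21.4% and 18.6%). Both comparisons use the same MG63 libraries and are therefore given side by side. Called lower against each control were C1orf116, EAF2, PMEPA1 and SMS in C4-2, and ACSL3, C1orf116, FKBP5, HERC3, KLK4, SMS, SORD and UAP1 in C4-2B. In 22Rv1 these were ACSL3, ADAMTS1, EAF2, FKBP5 and HPGD, with CENPN, KLK2 and SPDEF called higher against each control. KLK2 in C4-2B and STEAP1 in DU145 were called in opposite directions against the controls.

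**Figure D4:**
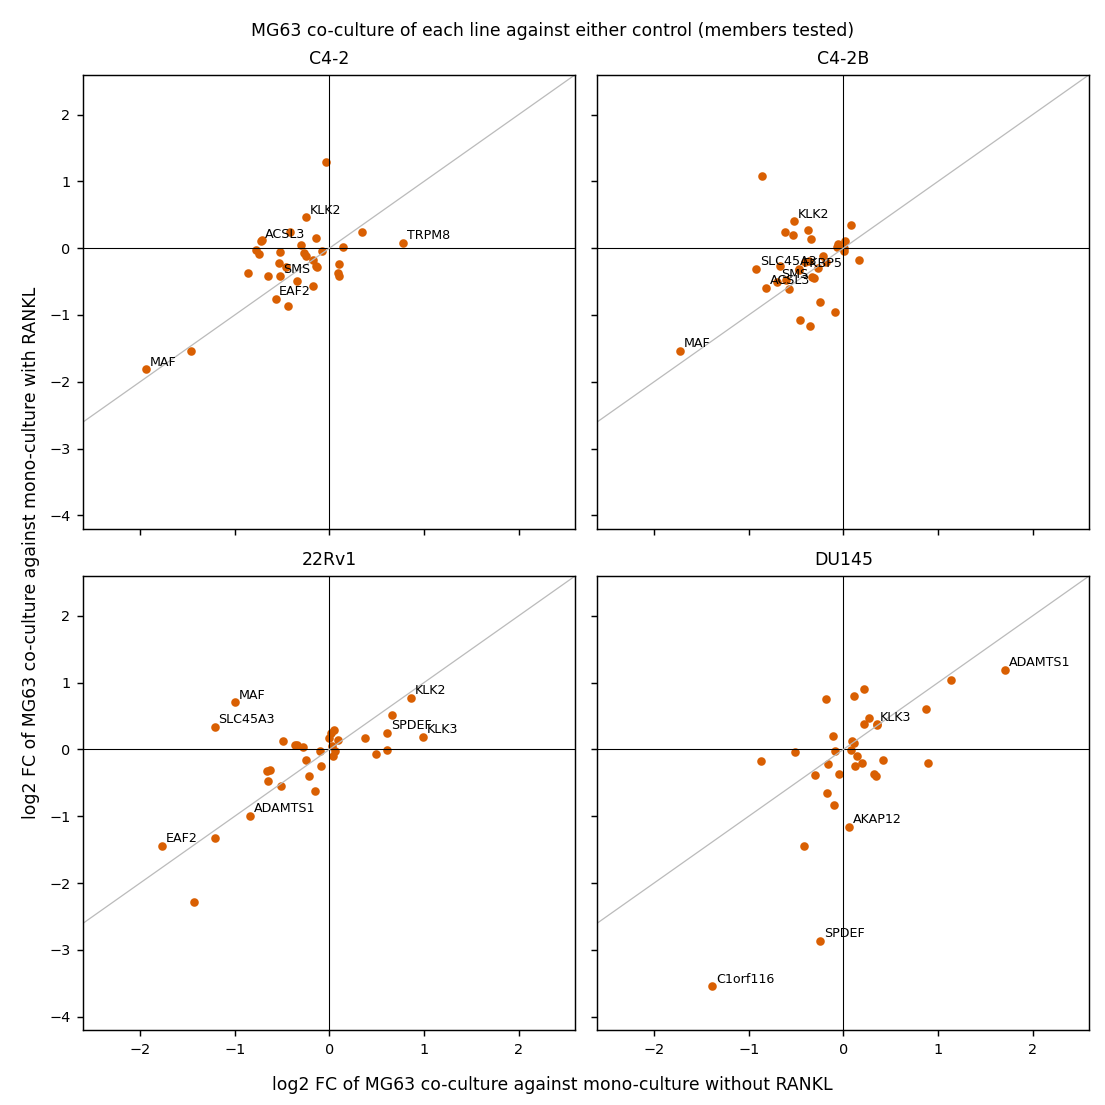
Log2 fold change of MG63 co-culture against mono-culture without RANKL (horizontal axis) and against mono-culture with RANKL (vertical axis) for each gene tested (points), 1 panel per line, with the grey line marking equal values. SMS lies below 0 on both axes in C4-2 and C4-2B, KLK2 lies left of 0 and above 0 in these lines, and C1orf116 and SPDEF lie far below the line in DU145 at −3.55 and −2.87 on the vertical axis.

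Since these are bulk libraries, fewer cells of a type and less RNA per cell cannot be told apart. Of 11 mesenchymal markers that MG63 cells could add, the summed level was 6.70 to 7.35 CPM in C4-2 mono-cultures and 5.28 to 9.54 CPM with MG63, 5.86 to 6.30 and 4.91 to 5.88 CPM in C4-2B, and 4.29 to 6.70 and 4.92 to 7.77 CPM in DU145. In 22Rv1 it was 35.4 to 38.2 and 51.9 to 54.0 CPM, mostly from TWIST1, while POSTN and THY1 stayed at or under 0.137 CPM on average. In every MG63 culture 9 of the 11 were under 1 CPM in C4-2, 10 in C4-2B, 8 in 22Rv1 and 9 in DU145. The part of MG63 RNA in the results was not tested.

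Mono-culture with RANKL against mono-culture without asked for the effect of the agent given to the osteoclast arm, with depth confounded. The scaling shift of the kind given above was −0.10 in DU145 here. In C4-2, 5 members were higher and 10 lower (9.16% of all genes in each direction), in C4-2B 2 and 13 (6.07% and 8.32%), in 22Rv1 3 and 9 (8.90% and 8.85%) and in DU145 11 and 4 (16.9% and 15.6%). Over the 29 members and the 11221 genes that reached 100 counts in both cultures, these were 5 and 9 in C4-2 (10.4% and 9.94% of these genes), 2 and 13 in C4-2B (6.86% and 8.60%), 3 and 8 in 22Rv1 (10.1% and 9.79%), and 10 and 4 in DU145 (19.0% and 15.9%). These comparisons share the mono-cultures without RANKL with the MG63 comparisons. The counts of C4-2B rest on single libraries, with 8 called when either of its mono-cultures with RANKL was left out. CAMKK2, a calcium-dependent kinase gene, was 49.0, 50.5 and 50.7 CPM against 26.8 and 26.1 CPM in C4-2, whereas C4-2B had 56.7, 55.0 and 63.3 against 29.3 and 30.7 CPM, changes of −0.83 ± 0.08 and −0.88 ± 0.08 (adjusted p = 3.04e-08 and 1.62e-08). KLK2 was lower by −0.71 ± 0.11 and −0.93 ± 0.11 in the BPCa lines, and KLK3 was lower in C4-2B (−0.66 ± 0.08) and higher in 22Rv1 (0.80 ± 0.09).

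DU145 moved in another way with RANKL. SPDEF was 0.994, 0.933 and 0.972 CPM without and 5.91 and 5.49 CPM with RANKL (2.66 ± 0.14, adjusted p = 7.81e-13), and C1orf116 was 3.91, 4.93 and 4.67 against 18.5 CPM or more (2.20 ± 0.08, adjusted p = 2.68e-16). AKAP12 was 16.9, 18.2 and 18.7 against 41.3 and 38.8 CPM (1.26 ± 0.12, adjusted p = 2.32e-08), and TPD52 fell from 247 to 252 CPM to 122 and 128 CPM (−0.90 ± 0.07). The epithelial marker EPCAM moved beside them, from 14.5, 16.4 and 21.6 CPM to 84.5 and 89.9 CPM, and 5 of the 6 luminal markers were higher with RANKL. Their part in the member changes was not tested. With RAW264.7 and RANKL, SPDEF was 5.24 and 5.22 CPM in DU145.

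RAW264.7 co-culture was compared with mono-culture with RANKL, the osteoclast arm with its own control of like depth, for 31 members, since ABCC4 and MAF were also under 100 counts there. In C4-2B, 3 members fell and 0 rose, where 0.0694% of all genes were called in each direction. In C4-2, 22Rv1 and DU145, edgeR called 0 members, where 0.0174% and 0%, 0% and 0.00868%, and 0.0174% and 0.00868% of all genes were called lower and higher. INPP4B and PTGER4 reached 100 counts there only with RAW264.7, with at most 98 and 81 counts with RANKL alone. Over the other 29 members and 11150 genes, C4-2B again had 3 lower and 0 higher (0.0717% and 0.0628% of these genes), and the other lines had 0. The counts that follow are over the 31 members. At an unadjusted p under 0.05 there were 15 members in C4-2 and 15 in C4-2B, all lower, where 3.32% and 3.46% of all genes were lower at that p, and 2 each in 22Rv1 and DU145, both higher, where 3.42% and 3.05% of all genes were. DESeq2 called 5 in C4-2, where its share of all genes was not counted.

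The 3 genes of C4-2B were among those that fell with MG63. SMS was 309 and 319 CPM with RANKL alone and 243 and 241 CPM with RAW264.7 (−0.37 ± 0.05, adjusted p = 0.00454), ACSL3 was 242 and 241 against 173 and 165 CPM (−0.51 ± 0.07, adjusted p = 0.00454) and FKBP5 was 171 and 177 against 126 and 119 CPM (−0.50 ± 0.07, adjusted p = 0.00613). In C4-2 the same genes had −0.29 ± 0.05, −0.39 ± 0.07 and −0.39 ± 0.07 (adjusted p = 0.0572, 0.0625 and 0.0784), with SMS at 254 and 253 against 209 and 205 CPM, which do not overlap. Leaving out mono-culture with RANKL library 2 or RAW264.7 library 1 of C4-2B left 0 members called, leaving out RAW264.7 library 2 left 1, and leaving out mono-culture with RANKL library 1 of C4-2 gave 1.

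**Figure D5:**
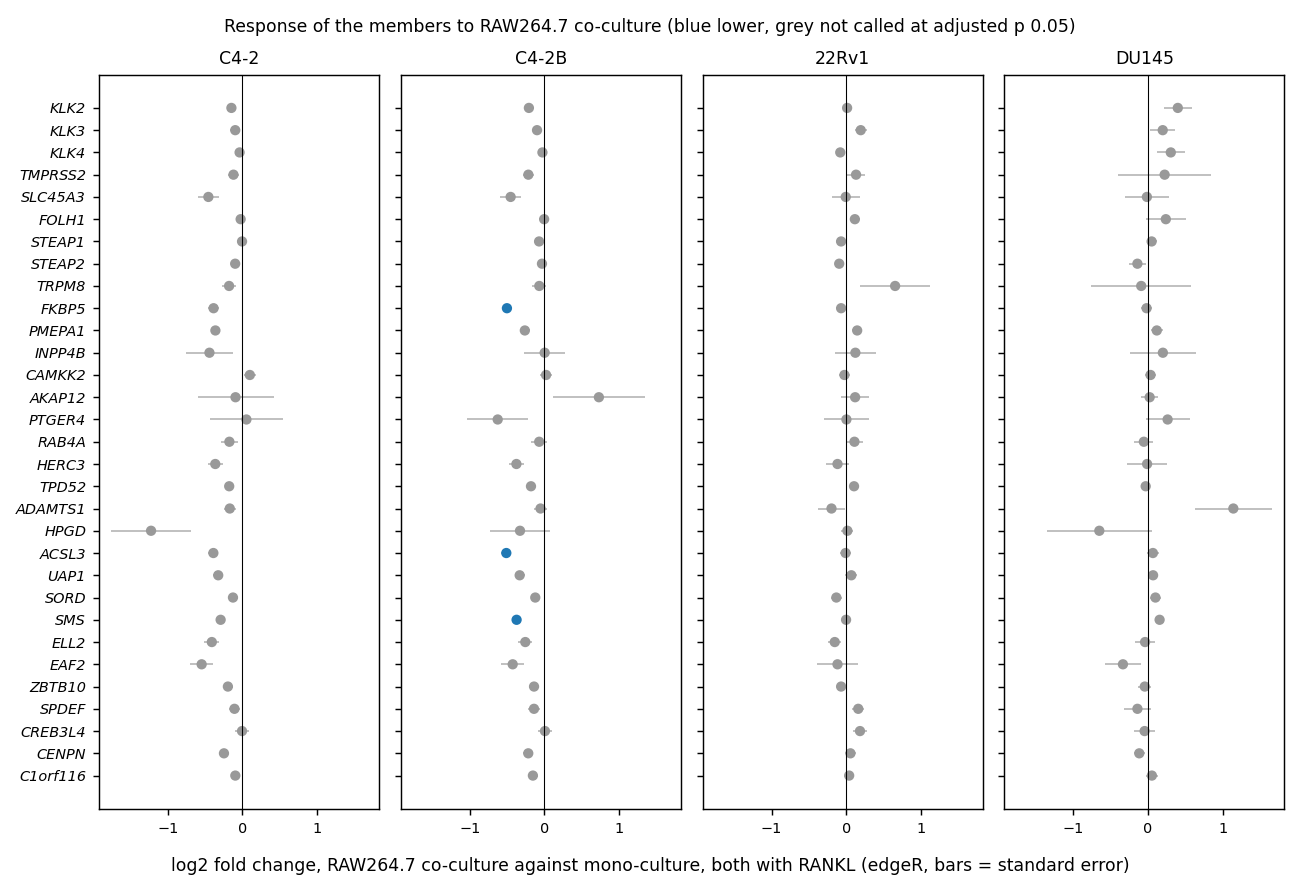
Dot plot of the log2 fold change with its SE (horizontal axis) of RAW264.7 co-culture against mono-culture with RANKL for the 31 genes tested (vertical axis), 1 panel per line. Values lie below 0 for 29 of 31 genes in C4-2, 27 in C4-2B, and 14 each in 22Rv1 and DU145, and blue marks the 3 genes called lower in C4-2B.

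Over both BPCa lines, the 4 RAW264.7 co-cultures lay below the 4 mono-cultures with RANKL for 9 of 28 members (32.1%, against 2.04% of all genes) and above them for 0 (1.57%). The 9 were SLC45A3, PMEPA1, HERC3, ACSL3, UAP1, SORD, SMS, EAF2 and C1orf116. SLC45A3, for example, went from 74.3 and 78.4 CPM with RANKL alone to 54.8 and 56.5 CPM with RAW264.7 in C4-2, and from 59.0 and 57.0 to 45.0 and 39.3 CPM in the subline. Mouse RNA cannot be seen in a table of human transcripts. KLK3 was 3590 and 3630 CPM against 3920 and 3800 CPM in C4-2, whereas C4-2B had 3090 and 2950 against 3290 and 3200 CPM, and KLK3 was not called in either.

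A further list of 52 androgen-responsive genes, none of them members, was followed in the same fit, and 51 were tested. With MG63, 11 fell and 4 rose in C4-2, 10 fell and 2 rose in C4-2B, 13 fell and 6 rose in 22Rv1, and 17 fell and 3 rose in DU145. Of all genes, 4.79% and 5.30%, 3.89% and 3.52%, 9.18% and 11.2%, and 15.3% and 15.2% were called lower and higher in these lines. Against mono-culture with RANKL the list had 15 lower and 5 higher in C4-2, 7 and 3 in C4-2B, 12 and 8 in 22Rv1, and 20 and 5 in DU145, beside the shares of all genes given above for that control. INSIG1 and SCD, sterol and fatty acid genes, fell in C4-2 (−1.15 ± 0.14 and −0.90 ± 0.16), C4-2B (−0.90 ± 0.14 and −0.78 ± 0.16), 22Rv1 (−0.52 ± 0.14 and −0.61 ± 0.16) and DU145 (−1.48 ± 0.15 and −1.14 ± 0.16). Both were again called lower against mono-culture with RANKL in each line except SCD in C4-2B (−0.35 ± 0.16). Of 6 genes that androgen represses, 4 were tested, and with MG63 1 rose in C4-2, 2 in C4-2B, 1 in 22Rv1 and 0 in DU145, while 0 fell. Against mono-culture with RANKL 1 was higher and 1 lower in C4-2, 1 and 0 in C4-2B, 2 and 0 in 22Rv1, and 0 and 2 in DU145. CAMK2N1 of that list rose in C4-2, C4-2B and 22Rv1 by 0.53 ± 0.10, 0.38 ± 0.09 and 0.98 ± 0.13, and against mono-culture with RANKL by 1.92 ± 0.12, 1.32 ± 0.11 and 0.48 ± 0.16. ACKR3, a chemokine receptor gene of the list, rose in C4-2B (1.11 ± 0.31, adjusted p = 0.0411), but against mono-culture with RANKL it was −0.42 there without a call and was called lower in C4-2 (−1.18 ± 0.27) and DU145 (−2.45 ± 0.65). With RAW264.7, C4-2B had 1 call among 48 of the further genes, AZGP1 (−0.40 ± 0.05), and CAMK2N1 rose by 0.69 ± 0.10 there.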

How the data were processed

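RNA was measured in 36 libraries of 4 human PCa cell lines (16 groups), grouped by their sample labels, and 0 columns were left unused. Per the labels, poly(A) RNA was made into strand-specific libraries and sequenced on DNBSEQ-G400. The deposited values are estimated counts of each transcript, which the authors obtained with kallisto and did not normalize across libraries. The submitters' processing notes name kallisto, FastQC and hg19, and the table holds no coordinates. The study's methods describe scaled TPM counts made with tximport. Of the nonzero deposited values 0.588% were whole counts, and whether the values carry that scaling was not tested. The counts and length-scaled levels given here assume that they do not. The RAW264.7 line is spelled RAW246.7 in the labels.

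The table had 161149 lines and 159837 transcripts, and 2491 lines of repeated transcripts were used once. The 6878 transcripts without a symbol (0.526 to 0.764% of counts) entered library totals only. Sums per symbol were rounded and tested with edgeR 4.0.16 in R 4.3.3 (TMM, quasi-likelihood fit and test, 1 mean per line and culture, Benjamini-Hochberg adjustment over all genes tested). A gene was kept if any library of the fit reached 100 counts, the minimum the study states. These were 13437 genes in the 20 libraries without RANKL, 11525 in the 16 with RANKL and 13454 in all 36. Length-scaled levels used GENCODE 29 transcripts, which covered 95.4% of the transcripts. Promoters came from RefSeq on GRCh38.p14. Single values were compared with exact permutation tests in scipy 1.17.1. On simulated data, C4-2 with MG63 against mono-culture recovered 174 of 199 genes changed 2-fold (87.4%) among 13304, with 8 false calls.

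The members and gene lists were chosen with earlier results of these data known. Named genes were the 35 members and genes of the lists with a called change. The rule also named 1 gene that is not reported here. Replicate numbers come from the labels. Deviations from the group means of libraries with equal numbers correlated at −0.0329 on average for MG63 co-cultures and mono-cultures and at 0.00999 to 0.0186 for the other groups, and the numbers were not taken to pair the libraries. Alternatives changed normalization, filter, tool (DESeq2 1.42.0), control, depth, threshold, libraries fitted and replicate block, and left out each library. The counts of libraries that do not overlap, the calls against each control, the counts over genes reaching 100 counts in both cultures and the shares of all genes at an unadjusted or permutation p were added after seeing the data.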

Additional observations from a re-analysis of the deposited data

Results flagged for a closer look

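The results here are those in which the MG63 response of 22Rv1 differed from the mean response of C4-2 and C4-2B by edgeR's test of the difference itself (log2 fold change in 22Rv1 minus the mean of the others, adjusted p under 0.05). The response was higher in 22Rv1 for KLK3 (1.31), KLK2 (1.24), SPDEF (0.97), TMPRSS2 (0.87), CREB3L4 (0.81), CENPN (0.75), CAMKK2 (0.70), SMS (0.61), PMEPA1 (0.44), KLK4 (0.33) and UAP1 (0.27). It was lower for STEAP1 (−0.42), ADAMTS1 (−0.93) and EAF2 (−1.25). KLK3, KLK2, SPDEF and TMPRSS2 rose in 22Rv1 and fell in C4-2 or C4-2B, CENPN rose in 22Rv1 and was not called in C4-2 or C4-2B, and EAF2 fell in 22Rv1 and C4-2. These directions hold for mono-culture without RANKL as control. With mono-culture with RANKL as control the difference was −0.14 for CAMKK2 and 0.081 for STEAP1, of the opposite sign, and 0.091 for KLK3, 0.34 for KLK2, 0.22 for TMPRSS2, 0.22 for CREB3L4, 0.17 for KLK4 and −0.91 for EAF2, none of them called. KLK2 was then called higher with MG63 in C4-2, C4-2B and 22Rv1, and KLK3 and TMPRSS2 were not called in these lines. Without MG63 library 1 of 22Rv1, the EAF2 difference was −1.97. Depth and culture cannot be told apart in these differences, since every mono-culture without RANKL was the deeper library in each line.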

How the results depend on the processing

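The control turned the direction of more member changes than any other setting. With mono-culture with RANKL in place of mono-culture without, 18 of 69 called member changes turned direction and 19 lost their call, or 17 and 19 of 65 without the 4 genes that reached 100 counts in mono-culture alone. The log2 values became 0.11 for ACSL3, 0.12 for CAMKK2 and 0.052 for SPDEF in C4-2, 0.24 for CAMKK2, 0.40 for KLK2, 0.27 for KLK3, 0.14 for PMEPA1 and 0.20 for TMPRSS2 in C4-2B, and −0.00345 for FOLH1, 0.71 for MAF (at most 48 counts in the libraries compared, and so not a result), 0.33 for SLC45A3, 0.13 for SORD, 0.067 for STEAP1, 0.070 for STEAP2 and 0.031 for UAP1 in 22Rv1. STEAP1 in DU145 became −0.37, and the difference between 22Rv1 and the BPCa lines became −0.14 for CAMKK2 and 0.081 for STEAP1. The count called became 16 in DU145 (7 higher, 9 lower, where 19.4% and 17.1% of all genes were called) and 8 for the difference between C4-2B and C4-2 (4 higher, 4 lower, where 2.66% and 2.39% of all genes were called). The cause was not tested.

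Under the other settings, no called member change that could be refitted turned direction, with 234 followed under most settings, 177 with all 36 libraries fitted together and 119 after thinning. DESeq2 lost 1 call, DESeq2 size factors in edgeR lost 5, library size alone 6 and no filter beyond 1 count 6. Thinning every library to the smallest total lost 11 of 119. Leaving out each library in turn lost 147 of 1412. DESeq2 called 23 members between C4-2B and C4-2, 9 in DU145 with MG63, 2 for the difference between C4-2B and C4-2 and 5 in C4-2 with RAW264.7. DESeq2 size factors gave 9 in DU145 with MG63. No filter gave 3, and library size alone 1, in C4-2 with RAW264.7. All 36 libraries fitted together gave 10 in DU145 with MG63, 1 for the difference between C4-2B and C4-2 and 1 in C4-2 with RAW264.7. Shares of all genes were not counted under these settings, so that these counts of members cannot be set against them.

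The study's thresholds are fold above 2 and p under 0.05, and since it names no adjustment, the p was taken here as unadjusted. They gave 3 members between C4-2B and C4-2, 19 between 22Rv1 and C4-2, 2, 1, 4 and 3 with MG63 in C4-2, C4-2B, 22Rv1 and DU145, 3 for the difference of 22Rv1, 1, 1, 2 and 4 with RANKL, and 1, 0 and 1 with RAW264.7 in C4-2, C4-2B and DU145. Of all genes, 3.04% and 28.7%, then 2.61%, 2.40%, 2.67% and 4.48%, 3.10%, then 3.05%, 3.21%, 2.98% and 5.83%, and 0.746%, 0.477% and 0.538% passed them in the same order. Without ABCC4, INPP4B, MAF and PTGER4, which reached 100 counts through the mono-cultures without RANKL and not with MG63, the thresholds gave 1, 0, 2 and 3 members with MG63, 3 for the difference of 22Rv1, and 0, 1, 1 and 3 with RANKL. This setting takes out the many changes under 2-fold by its construction.

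Without 1 library, the members called ranged from 9 to 13 in C4-2, 8 to 14 in C4-2B, 13 to 18 in 22Rv1 and 4 to 10 in DU145 with MG63, from 10 to 15 for the difference of 22Rv1, from 8 to 13 in C4-2B with RANKL, and from 0 to 1 in C4-2 and 0 to 3 in C4-2B with RAW264.7. With the replicate number as a block, 14 members were called in C4-2, 14 in C4-2B, 18 in 22Rv1 and 6 in DU145 with MG63 and 3 in C4-2B with RAW264.7, and 7 of 234 single calls were lost. Thinned counts called 12, 15, 16 and 6 members with MG63. Shares of all genes were not counted with a library left out, with the block or after thinning. Depth limits members near or under 1 CPM, such as MSMB in C4-2 and TMPRSS2, TRPM8 and MAF in DU145, and the 4 genes that reached 100 counts in mono-culture alone.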

Other observations

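Other gene lists were followed in the same fits, and no list was tested as a whole. With MG63, relative to mono-culture without RANKL, 5.30% of all genes were called higher and 4.79% lower in C4-2, 3.52% and 3.89% in C4-2B, 11.2% and 9.18% in 22Rv1, and 15.2% and 15.3% in DU145. Relative to mono-culture with RANKL these shares were 4.89% and 5.37%, 4.23% and 3.40%, 8.02% and 7.26%, and 19.4% and 17.1%.

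Of 10 genes for transcription cofactors, pioneer factors and NR3C1, 1 was higher and 0 lower in C4-2, 0 and 0 in C4-2B, 3 and 2 in 22Rv1, and 2 and 1 in DU145. With the other control these were 1 and 2, 1 and 0, 3 and 3, and 2 and 2. In 22Rv1, GATA2 (0.33 ± 0.07 and 0.33 ± 0.09 with the controls in this order) and HOXB13 (0.42 ± 0.08 and 0.49 ± 0.08), transcription factor genes of the prostate, rose with either control, and FOXA1, a pioneer factor gene, fell (−0.26 ± 0.07 and −0.38 ± 0.06). GATA2 rose in C4-2 (0.30 ± 0.07) only relative to mono-culture without RANKL and was −0.057 with the other control.

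Of 7 glucocorticoid-responsive genes, 0 were called in C4-2, 1 fell in C4-2B, 1 rose and 3 fell in 22Rv1, and 2 fell in DU145. With the other control, 1 was higher in C4-2, 1 lower in C4-2B, 1 higher and 2 lower in 22Rv1, and 2 higher and 1 lower in DU145. TSC22D3, a glucocorticoid-induced leucine zipper gene, fell in C4-2B (−0.64 ± 0.07) and was 0.039 with the other control, which called it higher in C4-2 (1.04 ± 0.10). ERRFI1 fell in DU145 with either control (−0.63 ± 0.13 and −0.45 ± 0.12), and KLF9 did so in 22Rv1 (−0.39 ± 0.12 and −0.62 ± 0.14). NR3C1 in 22Rv1 was 3.52, 3.69 and 3.30 CPM in mono-culture without RANKL and 10.0 and 10.8 CPM with it, and 3.19 and 3.25 CPM with MG63.

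Of the 6 luminal markers, 0 were called in C4-2 and C4-2B, 4 rose and 1 fell in 22Rv1, and 1 rose and 1 fell in DU145. With the other control, 1 was higher and 1 lower in C4-2, 0 were called in C4-2B, 1 was higher and 1 lower in 22Rv1, and 5 were lower in DU145. CDH1, the E-cadherin gene, fell in DU145 with either control (−0.81 ± 0.12 and −1.83 ± 0.14), whereas KRT18 was 0.40 ± 0.13 and −0.54 ± 0.13 there, called in opposite directions.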
